A study of Betula luminifera with 4 samples.

Results

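miR159 and miR319 are 2 related plant microRNA families, and 11 of the 215 distinct mature sequences in a small RNA table of the birch Betula luminifera carry one of their names. Members were taken by name (miR159 or miR319, any letter, arm and length), and each sequence was counted once, which gave 5 members of miR159 and 6 of miR319. Small RNAs were sequenced from roots and from shoots of clone G49#, a tissue-cultured line moved to sand, under CK (medium with 1.25 mM KH2PO4) or LP (the same modified medium without KH2PO4, its potassium kept up with K2SO4). The 2 treatments in the 2 tissues make 4 groups of 1 library each, so the differences below have no replicate check and no p-value. All plants had first been watered with deionized water to remove stored phosphate, the shoot libraries pool equal RNA of stems and leaves, the number of plants behind a library is not stated in the sources used here, and LP plants also received the added sulfate. The question behind the comparisons is how either organ's microRNAs respond to phosphate deficiency. No markers of root or shoot tissue were checked, since the table holds microRNAs only.

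Plant microRNAs are cut from hairpin precursors and guide the slicing of transcripts with near-perfect matches. In Arabidopsis, miR159 acts on GAMYB-type MYB transcription factors, which promote anther and seed development, and miR319 acts on a group of TCP transcription factors, which limit cell division in growing leaves. Both families come from long hairpins which, in Arabidopsis and in moss, are cut stepwise from the loop towards the base, so that further small RNAs are released from the stem between the loop and the mature microRNA.

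The mature sequences show which members belong together, so all are printed below, 5′ to 3′ as in the table (T for U), with the seed (bases 2 to 8) in capitals.
miR159a: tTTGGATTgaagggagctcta
miR159d: gGTTTGGAttgaagggagctcta
miR159b: aTTGGACTgaagggagctcc
miR319a: tTGGACTGaagggagctccc
miR319c: tTGGACTGaagggagctcccca
miR319e: tTGGACTGaagggagctcccttca
miR159a-5p: aGCTGCTGagttatggatccc
miR159c: tAGCTGCCgactcattcatcca
miR319a-5p: aGTGAATGatgcgggagacaaat
miR319b-5p: aGAGCTCTcttcagtccattc
miR319d-5p: gAGCTTTCttcagtccactc
The 11 members have 9 different seeds, and the only shared one, TGGACTG, belongs to miR319a, miR319c and miR319e. These 3 start alike: miR319c and miR319e match miR319a at all 20 of its bases and are longer at the 3′ end, at 22 and 24 nt against 20 nt. miR159d likewise holds the whole of miR159a with 2 more bases at its 5′ end, which shifts its seed.

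The main sequences of the 2 families, miR159a and miR319a, are close relatives. Aligned without gaps they share 17 of 20 bases, and the 3 differences, with the miR159a base first and positions counted from the 5′ end of miR319a, are T6C, T19C and A20C. miR159b carries the name of the first family, yet 19 of its 20 bases align with miR319a with no difference, whereas it differs from miR159a at 3 of 20 bases. The table places miR159b on transcript TRINITY_DN24093_c0_g3, positions 199 to 225 on the minus strand. That placement is a 27-nt stretch that differs from the read sequence at 1 base, G7C with the transcript base first and counted from the 5′ end of miR159b.

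For 7 of the 11 members the table gives a place on one of the authors' assembled transcripts, and no genome was used here. miR159a and miR159a-5p lie on transcript TRINITY_DN25641_c1_g5, positions 87 to 372 on the plus strand, at 287 to 307 and 178 to 198. The precursor is printed with miR159a-5p (first) and miR159a (second) in capitals, to show how far apart they lie.
birch miR159a precursor: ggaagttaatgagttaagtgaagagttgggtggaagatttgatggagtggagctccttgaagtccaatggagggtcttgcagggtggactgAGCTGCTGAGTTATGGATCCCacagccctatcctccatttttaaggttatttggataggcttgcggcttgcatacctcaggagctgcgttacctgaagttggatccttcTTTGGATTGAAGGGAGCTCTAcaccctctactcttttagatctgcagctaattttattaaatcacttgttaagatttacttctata
In the fold that the table gives for this precursor, miR159a-5p does not pair with miR159a. Of the 21 bases of miR159a, 17 pair within positions 49 to 67 of the 286-nt precursor, where the table lists no product. miR159a-5p, at positions 92 to 112, pairs by 15 bases within positions 156 to 176, nearer the loop. It is called the inner product below. Whether other birch precursors also give miR159a was not tested, so its reads need not all come from this transcript.

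The miR319 members lie on 2 transcripts whose names share the assembly cluster TRINITY_DN24666_c1. Transcript TRINITY_DN24666_c1_g4, positions 106 to 190 on the plus strand, holds miR319b-5p and miR159c. Transcript TRINITY_DN24666_c1_g7, positions 1 to 69 on the plus strand, holds miR319a-5p and miR319a. Products are in capitals.
birch miR319 fragment g4: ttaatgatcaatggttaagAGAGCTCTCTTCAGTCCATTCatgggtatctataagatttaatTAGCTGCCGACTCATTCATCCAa
birch miR319 fragment g7: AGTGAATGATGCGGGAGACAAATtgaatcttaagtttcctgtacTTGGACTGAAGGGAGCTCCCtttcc
In the folds the table gives for these fragments, 0 bases of one product pair with the other, and whether both come from 1 birch gene was not tested. The representative known precursor that the table gives for miR319a-5p and miR319c is MIR319a of poplar (prefix ptc), 188 nt long, and it shows all 4 products in 1 hairpin. Capitals mark the places of miR319b-5p, miR159c, miR319a-5p and miR319a in that order.
poplar MIR319a precursor: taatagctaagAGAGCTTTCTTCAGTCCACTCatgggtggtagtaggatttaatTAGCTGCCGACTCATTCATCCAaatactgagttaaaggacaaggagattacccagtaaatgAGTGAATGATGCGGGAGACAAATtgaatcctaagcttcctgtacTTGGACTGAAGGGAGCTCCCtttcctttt
miR159c, miR319a-5p and miR319a match the poplar hairpin at every base, as does miR319d-5p, while miR319b-5p differs at 2 bases, T7C and C19T with the poplar base first and counted from the 5′ end of miR319b-5p. When the poplar precursor was folded with RNAfold, 17 bases at the place of miR319b-5p paired with the place of miR319a. At the place of miR159c, 15 bases paired with the place of miR319a-5p. The poplar bases at the first place hold miR319d-5p whole, and miR319b-5p differs from them at the 2 bases named. On this map miR319b-5p and miR319d-5p lie as the outer partner strand of miR319a. miR159c and miR319a-5p face each other nearer the loop as an inner pair. For miR319, the words partner, outer and inner below refer to this poplar map and not to a birch hairpin. The table's arm names do not follow this map: it lists miR159c as 3′ although it matches the 5′ side of the poplar hairpin, and miR319a-5p as 5′ although it matches the 3′ side. miR159c resembles the inner product of the other family, with 15 of 21 bases shared with miR159a-5p, yet it matches the miR319 precursor of poplar at every base despite its name. miR159b differs from that precursor at 1 base, C1A with the poplar base first and counted from the 5′ end of miR159b. Counted alike from their own 5′ ends, miR319c differs from it at T21C and T22A and miR319e at T23C and C24A. These differences lie in the bases added to miR319a. In birch fragment g7 miR319a is followed by tttcc, which differs from the added bases of both. Whether miR319c and miR319e come from the same precursor as miR319a was not tested.

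**Figure D1:**
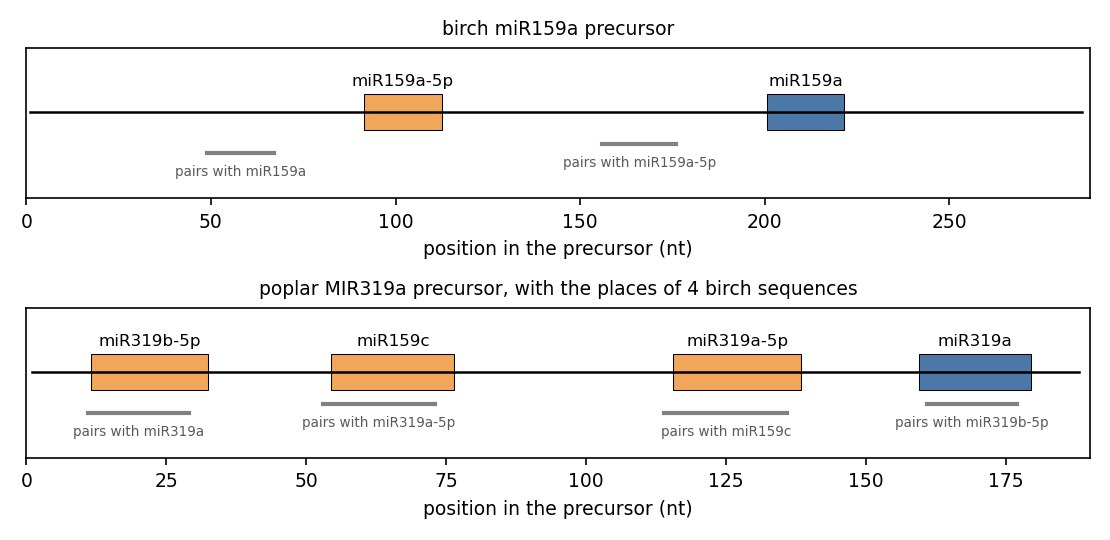
Positions of products (boxes, in nt from the start of each precursor) and of the bases they pair with (grey bars), on the birch miR159a precursor with the deposited fold and on the poplar MIR319a precursor folded with RNAfold. The dominant sequences are blue and the others orange. On the poplar precursor the places of miR319a and miR319b-5p face each other, and those of miR159c and miR319a-5p form an inner pair. On the birch precursor miR159a-5p lies between miR159a and the loop.

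Levels below are the authors' normalized values, each the raw reads times 1 constant per library. Raw reads of all distinct sequences in the table sum to 308667 (CK) and 101816 (LP) in roots and to 1015833 (CK) and 723599 (LP) in shoots, so counts from LP roots are the least precise. Intervals in parentheses are 95% intervals for counting error of the reads only, because PCR copies are not independent molecules, and they compare libraries, not conditions. In pooled tissue, fewer cells of a type and less RNA per cell cannot be told apart. Reads were fractional in at least 1 library for 5 of the 11 members, as happens when reads are divided between places, so the division between miR319a and its nested relatives is less certain than the family sum.

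miR159 was abundant and miR319 varied more in rank. miR159 made up 2.68% of the table's reads in CK roots (2.62% to 2.73%, exact binomial) and 4.500% in LP roots (4.37% to 4.63%), and 11.98% in CK shoots (11.92% to 12.04%) and 4.82% in LP shoots (4.77% to 4.87%). Among 56 named families it ranked 7 and 6 in CK and LP roots, and 3 and 4 in CK and LP shoots. miR319 made up 0.0985% (0.0877% to 0.110%), 0.0491% (0.0365% to 0.0647%), 1.69% (1.67% to 1.72%) and 0.395% (0.380% to 0.409%) in the same order. It ranked 25, 30, 6 and 13, so both families stood highest in the shoot CK library.

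One sequence dominated each family. miR159a, identical to a poplar miR159a in the table, stood at 5577 and 10678 in CK and LP roots, and at 59778 and 26369.5 in CK and LP shoots. Both shoot libraries lie above both root libraries, and root LP lies above root CK while shoot LP lies below shoot CK. It held 66.1%, 85.4%, 95.1% and 96.8% of its family's reads. miR319a stood at 249.8, 132, 8469 and 2128 in the same libraries, with LP below CK in both tissues. It held 80.3%, 96.04%, 95.2% and 95.5% of its family's reads.

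**Figure D2:**
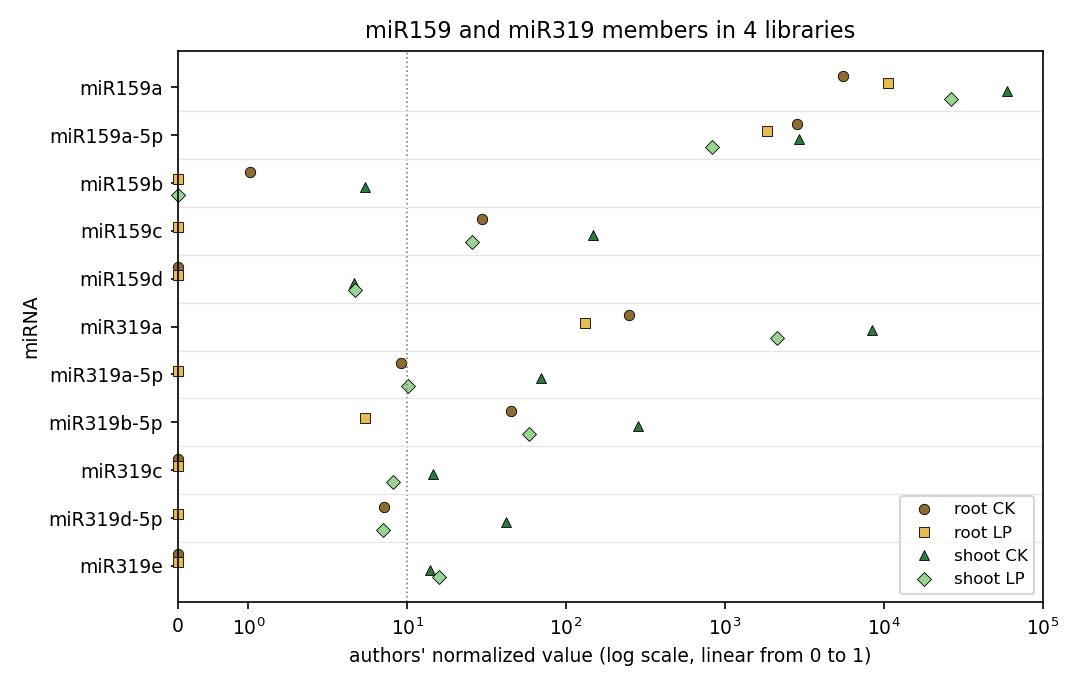
Normalized value of each member (log axis, linear from 0 to 1) in the 4 libraries, 1 point per library, with the minimum of 10 dotted. miR159a reaches 59778 in shoot CK, 7 members are listed at 0 in root LP, and shoot CK is the highest library for every member but miR159d and miR319e.

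The second most abundant member of miR159 was the inner product miR159a-5p, at 2835 and 1829 in CK and LP roots, and at 2939.9 and 834 in CK and LP shoots. Unlike miR159a, it was at a similar level in both CK libraries. miR319b-5p, which lies opposite miR319a on the poplar map, stood at 44.96, 5.46, 285 and 58.5. miR159c stood at 29.6, 0, 148 and 25.7, and miR319a-5p at 9.20, 0, 69.8 and 10.1. Both strands of the inner miR319 pair were highest in shoot CK and listed at 0 in root LP, and root CK and shoot LP lay close to each other. miR319d-5p stood at 7.15, 0, 42.1 and 7.02. The longer sequences miR319c and miR319e were listed at 0 in both root libraries, at 14.5 and 13.95 in shoot CK and at 8.13 and 15.9 in shoot LP. miR159b, with 1 read in root CK and 10.5 in shoot CK, and miR159d, with 9 reads in shoot CK and 6 in shoot LP, stayed under a value of 10 in every library and were not compared further. The table holds a value of exactly 1 read in 5 of 705 cases above 0, so a 0 may hide a read, and neither an upper limit nor a fold is given for values of 0.

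In roots, the 2 families stood on opposite sides of CK under LP. The miR159 sum was 12507 in root LP and 8443 in root CK, 1.48-fold higher (1.43 to 1.54), and the miR319 sum was 138 against 311, 2.26-fold lower (1.68 to 3.13). The miR319 sum lies near the 2-fold line, since scaling to the table total took its log2 ratio from -1.17 to -0.99. Within miR159 the 2 sequences listed on 1 transcript also lay on opposite sides. miR159a was 1.91-fold higher (1.84 to 1.995) and the inner product miR159a-5p 1.55-fold lower (1.42 to 1.69). The miR159a ratio lies at the 2-fold line, since scaling to the table total, which shifts log2 ratios in roots by 0.18 (less for low values), took it from 0.94 to 1.12. miR319a was 1.89-fold lower (1.39 to 2.65), from 244.5 reads under CK and 48.5 under LP. miR319b-5p was 8.24-fold lower (2.15 to 70.1), a value that rests on 44 reads under CK and 2 under LP. miR159c had 29 reads in root CK, miR319a-5p 9 and miR319d-5p 7, and all 3 were listed at 0 in root LP. Calls of higher or lower needed a difference of at least 2-fold and a value of 10 in 1 of the 2 libraries. A listed 0 beside such a value counted as at least 2-fold apart, as for miR159c here, although it may hide a read. Of the 5 members that reached 10, 0 were higher and 2 lower, miR159c and miR319b-5p, where 24.5% of all 143 sequences were higher and 18.2% lower (42.7% either way). Both lower members reached 10 only through root CK, so they could not have been called higher. The median log2 ratio of the 5 was -0.91, which is the miR319a value, against 0.07 over all. Some of the 5 lie on the same transcript, so they are not independent.

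In shoots, members of both families were lower under LP. The miR159 sum was 27234 in shoot LP and 62876 in shoot CK, 2.31-fold lower (2.28 to 2.34), and the miR319 sum 2228 against 8894, 3.99-fold lower (3.84 to 4.15). miR159a was 2.27-fold lower (2.24 to 2.29) and miR159a-5p 3.53-fold lower (3.30 to 3.77). Of the 9 members that reached 10, 0 were higher and 7 lower, where 17.9% of all 140 sequences were higher and 27.9% lower (45.7% either way). Of the 9, miR319c and miR319d-5p reached 10 only through shoot CK, and miR319e and the other 6 did so in both libraries. The first 2 could therefore not have been called higher. The median log2 ratio of the 9 was -1.99 against -0.23 over all. Some of the 9 lie on the same transcript or hold the same sequence, so they are not independent, and the count and median support nothing by themselves. TMM scaling, which shifts log2 ratios in shoots by 0.39 (less for low values), brought that of miR159a from -1.18 to -0.79 and that of the family sum from -1.21 to -0.81, which is under 2-fold, and it gave 23 of all sequences as lower and 48 as higher in place of 39 and 25.

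miR319a and the other birch sequences placed in the outer and inner pairs of the poplar MIR319a hairpin were lower in shoots under LP. miR319a was 3.98-fold lower (3.82 to 4.15). Of the sequences opposite it on the poplar map, miR319b-5p was 4.87-fold lower (3.82 to 6.28) and miR319d-5p 6.002-fold lower (3.03 to 13.7). The inner pair was 5.74-fold (3.99 to 8.50) lower for miR159c and 6.88-fold (3.89 to 13.3) lower for miR319a-5p. The intervals of these 5 overlap. The 2 members within 2-fold were the longer sequences that hold miR319a, whose added 3′ bases do not fully match the birch or poplar precursor. The 22-nt miR319c had a log2 ratio of -0.76, from 28 reads under CK and 10.4 under LP. The 24-nt miR319e had one of 0.18, from 27 and 20.4 reads. Both intervals include equality. Length classes differed too. The median log2 ratio in shoots was -1.03 over 12 other sequences of 20 nt, the length of miR319a and miR319d-5p. It was -0.28 over 75 others of 21 nt, the length of miR159a, miR159a-5p and miR319b-5p. It was 0.51 over 17 of 22 nt, 0.69 over 3 of 23 nt and 0.90 over 17 of 24 nt. Beside these, the 22-nt miR159c stood at -2.48 and miR319c at -0.76, the 23-nt miR319a-5p at -2.67 and the 24-nt miR319e at 0.18. The part of length in these ratios was not tested. In roots, 17 other sequences of 20 nt had a median of 0.70, against -0.91 for the 20-nt miR319a.

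**Figure D3:**
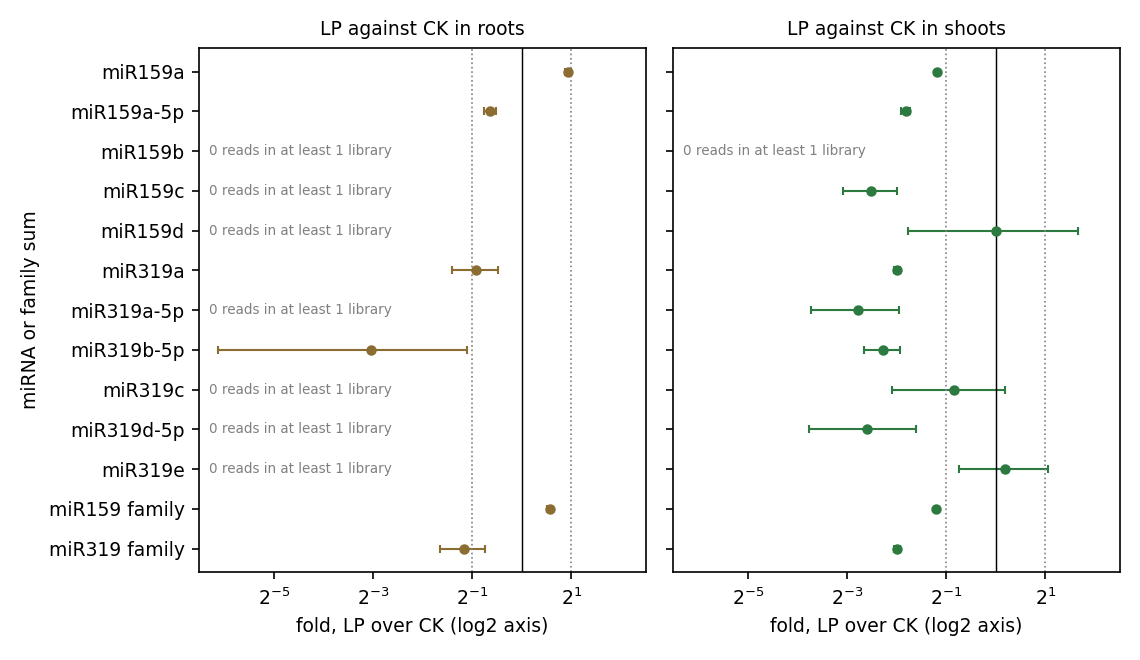
Fold of LP over CK (log2 axis) for each member and family sum, in roots (left) and shoots (right), with bars for the 95% counting interval and dotted lines at 2-fold. The miR159 sum lies at 1.48 in roots and at 0.433 in shoots, the miR319 sum below 1 in both, and members with 0 reads in a library have no point.

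Between tissues, miR319 differed more than miR159. Under CK, miR159a was 10.7-fold (10.4 to 11.02) and miR319a 33.9-fold (29.9 to 38.7) higher in shoots than in roots. Under LP the same ratios were 2.47-fold (2.39 to 2.55) and 16.1-fold (12.2 to 22.1). The miR319 members miR319b-5p, miR319d-5p and miR319a-5p were 6.33-fold (4.65 to 8.82), 5.89-fold (2.75 to 15.2) and 7.59-fold (3.88 to 16.9) higher in shoots under CK, and miR159c 4.99-fold (3.40 to 7.58). None of these 4 intervals reaches that of miR319a. miR159a-5p stood apart, with a log2 ratio of root over shoot of -0.05 under CK, an interval that includes equality, and a value 2.19-fold (1.99 to 2.42) higher in roots under LP.

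Of the 9 members that reached 10 under CK, 0 were higher in roots and 8 lower, where 26.1% of all 142 sequences were higher and 38.0% lower (64.1% either way). Under LP 1 of 7 was higher, miR159a-5p, and 6 were lower, where 34.8% of all 158 were higher and 38.0% lower (72.8% either way). Under CK miR319a-5p, miR319c, miR319d-5p and miR319e, 4 of the 8, reached 10 only through the shoot library, as did miR159c, miR319a-5p, miR319b-5p and miR319e, 4 of the 6, under LP. These could be called only as lower in roots, or not at all, so the counts support nothing by themselves. These ratios also depend on scaling: scaling to the table total shifts root-over-shoot log2 ratios by 0.73 under CK and 1.02 under LP (less for values near the added 1). That took miR159a under LP from -1.30 to -0.28 and its family sum from -1.12 to -0.10, under 2-fold, and turned miR159a-5p under CK to 0.68. miR319a stayed more than 2-fold lower in roots under all 4 other scalings, between -4.29 and -4.96 under CK and between -2.91 and -4.32 under LP.

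The reads of miR159a per read of miR319a compare the 2 families within a library, where scaling cancels. There were 22.3 (19.7 to 25.5) and 80.7 (61.3 to 111) in CK and LP roots, and 7.06 (6.94 to 7.17) and 12.4 (11.9 to 12.9) in CK and LP shoots. The intervals do not overlap, and the ratio was higher in roots than in shoots and higher under LP than under CK in both tissues. LP over CK, it was 3.61 times as high (2.66 to 5.09) in roots and 1.76 times (1.68 to 1.83) in shoots. Root over shoot, it was 3.16 times as high (2.78 to 3.62) under CK and 6.51 times (4.94 to 8.96) under LP.

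**Figure D4:**
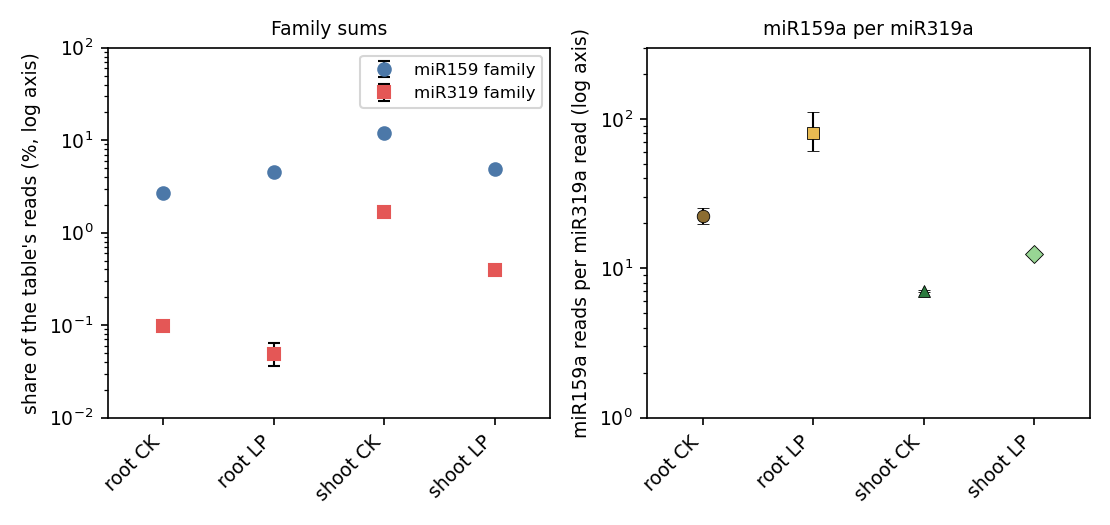
Left, share of the table's reads (%, log axis) taken by each family in the 4 libraries with exact binomial intervals. Right, reads of miR159a per read of miR319a (log axis) with 95% counting intervals. The miR159 share is highest in shoot CK at 11.98%, and the ratio runs from 7.06 in shoot CK to 80.7 in root LP.

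Beside miR159a, the inner product miR159a-5p took a much larger part of the reads in roots than in shoots. miR159a-5p made up 33.7% of the reads of itself and miR159a in CK roots (32.7% to 34.7%, exact binomial) and 14.6% in LP roots (13.6% to 15.7%), and 4.69% in CK shoots (4.57% to 4.81%) and 3.07% in LP shoots (2.89% to 3.25%). No intervals overlap, and the share was lower under LP in both tissues. Reads of miR159a per read of miR159a-5p were 10.3 times (9.80 to 10.9) as high in shoots as in roots under CK and 5.42 times (4.88 to 6.004) under LP.

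The miR319 products gave the same order between the CK libraries from far fewer reads. The inner pair miR159c and miR319a-5p made up 13.5% (9.72% to 18.02%) of the reads of themselves and miR319a in root CK, from 38 reads, and 2.504% (2.27% to 2.75%) in shoot CK. It was listed at 0 in root LP and made up 1.66% (1.22% to 2.21%) in shoot LP. The outer sequences miR319b-5p and miR319d-5p differ at 2 bases, and whether they come from 1 birch precursor was not tested. Together they made up 17.2% (13.1% to 22.02%) and 4.0% (0.488% to 13.7%) in CK and LP roots, and 3.72% (3.44% to 4.01%) and 2.99% (2.39% to 3.69%) in CK and LP shoots, of their own reads plus those of miR319a. Within the inner pair, miR159c had 3.22 reads (1.49 to 7.74) per read of miR319a-5p in root CK, 2.12 (1.72 to 2.62) in shoot CK and 2.54 (1.30 to 5.26) in shoot LP, and these intervals overlap.

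**Figure D5:**
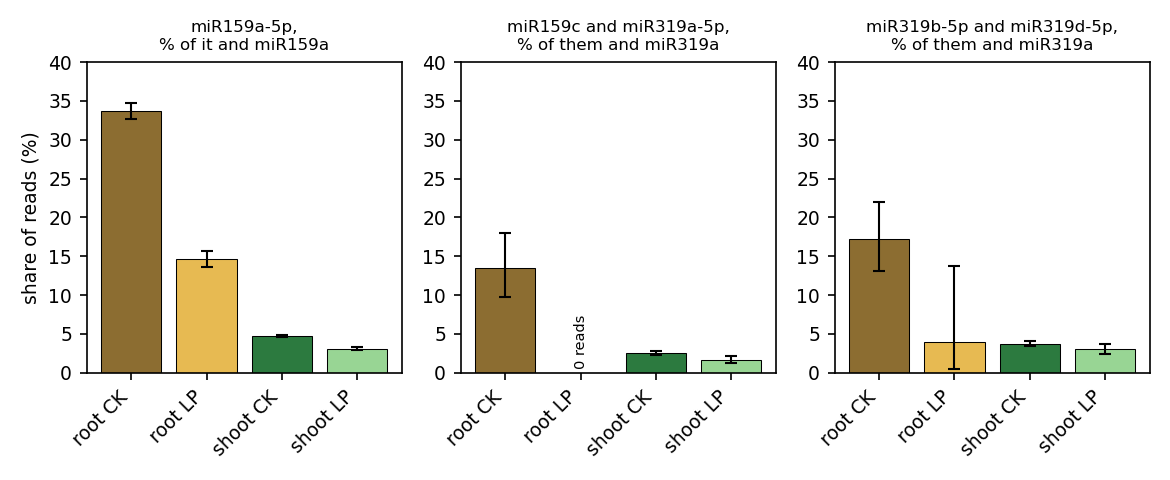
Share of reads (%) of the less abundant products beside the dominant miR159a or miR319a, in the 4 libraries, with exact binomial intervals. By its place on the poplar map, miR159c is set beside miR319a. miR159a-5p runs from 33.7% in root CK to 3.07% in shoot LP, and both miR319 groups are highest in root CK.

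Other precursors were compared after these values had been seen, by the less abundant of their 2 listed products. That product may be the partner strand of the other, which miR159a-5p is not, so the shares may differ in kind. Among 20 other precursors with 2 listed products and at least 50 reads in both CK libraries, the share of the less abundant product was higher in root CK than in shoot CK for 12 and lower for 6, with medians of 18.6% and 5.01%. The pair listed on the miR159a transcript had 33.7% and 4.69% in the same libraries. Under LP the share was lower than under CK in 11 of 17 others in roots, as for miR159a-5p, and higher in 14 of 20 in shoots, where that of miR159a-5p was lower. Some of these precursors share their main sequence, so they are not independent.

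Set beside other families over the 4 libraries, miR159 and miR319 were not each other's closest match. Likeness was the root mean square difference of log2(value + 1) after each family's own mean was subtracted, over the 48 families that reached 10 in a library. Closest to miR159 were miR536 at 0.21, miR169, which targets NF-Y transcription factors, at 0.28, and miR828, which targets MYB genes, at 0.38. miR319 came at rank 28 with 1.38. Closest to miR319 were miR394, whose Arabidopsis target encodes an F-box protein, at 0.87, miR482, which targets immune receptor genes, at 1.31 and miR858, which targets MYB genes, at 1.32, with miR159 at rank 4. miR394 stood at 326 and 182 in CK and LP roots, and at 3029 and 823 in CK and LP shoots, the same order of libraries as miR319. The other 2 did not share that order. In shoots miR482 was higher under LP, at 211390 against 141326 under CK. In roots miR858 was higher under LP, at 221 against 72.5 under CK. miR536 and miR828 had no value above 97.9, so their likeness rests on few reads.

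A list of 9 other families that regulate development (miR156, miR157, miR164, miR165, miR166, miR171, miR172, miR394 and miR396) had 7 families that reached 10. In roots under LP 0 of the 7 were higher and 1 lower, miR164, which targets NAC genes, with 22.9% of 48 families higher and 8.33% lower. The list's median log2 ratio was -0.31, against 0.57 for miR159 and -1.17 for miR319. In shoots under LP 0 were higher and 2 lower, miR172, which targets AP2-type genes, and miR394, with 21.4% of 42 families higher and 35.7% lower. The median was -0.64, against -1.21 for miR159 and -2.00 for miR319. Roots held at least 2-fold less than shoots of 2 of the 7 under CK, miR172 and miR394, and of 2 under LP, miR164 and miR394, with 35.7% and 27.1% of all families lower. None of the 7 was at least 2-fold higher in roots, with 19.0% and 39.6% of all families higher.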

How the data were processed

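Per the labels' protocols, TruSeq small RNA libraries were read from 1 end for 36 nt on an Illumina HiSeq2500, and 54 plants were divided between CK and LP in blocks that no label ties to a library. The raw columns, named so per the file headers, are estimated counts of reads that the authors deposited. The normalized columns, named so per the file headers, hold a signal equal to the raw value times 1.02 (CK) and 2.73 (LP) in roots and 0.517 (CK) and 0.780 (LP) in shoots. Aligner, counter, miRBase release and the origin of these constants: not given in the sources used here. Its 221 rows hold 215 distinct sequences, each counted once; no member was repeated. Totals are those of the table, not of whole libraries.

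Python 3.11.15 with scipy 1.17.1 was used. Folds are plain ratios of normalized values and log2 ratios were taken after adding 1. Fold intervals are exact conditional (Clopper-Pearson, 95%), from raw reads rounded to whole numbers, and those of a change in a within-library ratio are conditional intervals of the odds ratio. The fold intervals and the 2-fold calls were tested on counts simulated with counting error only, and the odds-ratio and share intervals were not tested. Such counts hold no PCR copies or fractional reads, so that test cannot show how the intervals behave on these reads. The poplar MIR319a precursor was folded with RNAfold (ViennaRNA 2.7.2), and birch pairings are those of the deposited folds. Alternatives were the table total with and without tRNA-like families, TMM (edgeR 4.0.16, normalization only), the median of ratios, other minima and pseudocounts, all rows, 1 member or 3p arms only, and grouping by sequence. Every member is named; for each family the 3 families with the most similar pattern are named. Members, lists and tests were chosen with earlier results of these data known.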

Additional observations from a re-analysis of the deposited data

Results flagged for a closer look

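The ratio of LP to CK lay on opposite sides of equality in roots and shoots for miR159a and for the miR159 sum, with both counting intervals away from equality. For miR159a the log2 ratio was 0.94 in roots and -1.18 in shoots, a difference of 2.12. For the miR159 sum it was 0.57 in roots and -1.21 in shoots, a difference of 1.77. The difference between the tissues was not tested, since each ratio rests on 1 library per treatment. The inner product miR159a-5p, listed on the same transcript, was lower under LP in both tissues.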

How the results depend on the processing

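No paired analysis was possible because each group has 1 library. No ratio of a family, and no ratio of a member past 2-fold, changed sign under any alternative run. In the order table total, table total without tRNA-like families, median of ratios, the log2 ratio of miR159 became 0.75, 0.77 and 0.46 for LP over CK in roots, -1.31, -1.30 and -1.04 in shoots (-0.81 with TMM), -2.16, -2.10 and -2.57 for root over shoot under CK (-2.78 with TMM), and -0.10, -0.028 and -1.07 under LP (-1.45 with TMM). For miR319 the same settings gave -2.10, -2.09 and -1.83 for LP over CK in shoots (-1.60 with TMM) and -4.10, -4.04 and -4.51 for root over shoot under CK. Under LP the first 2 gave -2.99 and -2.91. For LP over CK in roots, miR319 stood at -0.99 and -0.97 with the first 2, under 2-fold, and at -1.28 with the median of ratios and -1.22 with TMM. With the most abundant member alone, or 3p arms alone, it stood at -0.91 in roots. With the most abundant member alone, miR159 stood at 0.94, -1.18, -3.42 and -1.30 over the 4 comparisons, and with 3p arms alone at 0.93, -1.18, -3.42 and -1.31, while miR319 under CK stood at -5.08 and -5.08. The 3p arms are those listed, which include miR159c and leave out miR159b, although miR159b matches the 3′ side of the poplar hairpin. Counting miR159b and miR159c with miR319, a grouping chosen after the data were seen, moved no family ratio beyond counting error.

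Of members in roots under LP, 1 counted as higher under both table-total scalings in place of 0, and 4 as lower with the median of ratios, 5 with no minimum and 0 with a minimum of 100, in place of 2. Root over shoot, 4 in place of 8 were lower under CK and 2 in place of 6 under LP with a minimum of 100, and 0 in place of 1 were higher under LP with TMM. Over all sequences, table-total scaling gave 56 in place of 37 as higher in roots under CK, and 84 higher and 37 lower in place of 55 and 60 under LP; without tRNA-like families these were 56, 85 and 36. With a minimum of 100, higher and lower counts were 6 and 12 in roots under LP, 9 and 19 in shoots, 21 and 33 between tissues under CK and 24 and 31 under LP. With no minimum, 61 were lower in roots, 42 higher and 62 lower in shoots, and 82 and 92 lower between tissues under CK and LP. The cause of these moves, beyond the number of sequences a minimum admits, was not tested. Depth limits root LP most, where miR319b-5p rests on 2 reads.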
